A study of Danio rerio with 48 samples.

Results

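The genes described here are components of the Notch pathway in the adult zebrafish retina. They are the receptors, their ligands, the Fringe modifiers, the Numb antagonists, the Rbpj transducers and the Her, Hes and Hey transcription factors. Members were taken as every row of the expression table whose symbol belongs to the notch, dl, dll, jag, fng, numb, rbpj, maml, her, hes or hey families. The rule found 40 of 15245 listed genes, and no measured value entered it. Of the 40 members, 27 passed the filter on low values, which asked for 6 or more of the 48 libraries at 5 or above. The other 13 members, dlb, dld, her1, her2, her3, her4.2, her4.3, her5, her7, her8.2, her11, her13 and heyl, never exceeded the 9.58 of her11 in any library and were not tested.

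Whole retinas of adult albino zebrafish, 6 to 9 months of age, were profiled by 3′ mRNA sequencing during chronic low light (CLL). Fish were dark-adapted for 24 h, and those harvested then form the 0 h baseline. All the others went from the dark into continuous light of about 5000 lux and were collected 24, 36 and 72 h (hpl) or 5, 10, 14 and 28 days (dpl) after light onset. Each of the 8 time-points had 6 libraries, each from the retina of 1 eye of 1 fish, in library sets of 3 that correspond to replicates 1 to 3 and 4 to 6. Every group thus shared the strain and the dark adaptation, and no group was kept on the usual light cycle over the same days. The 36 hpl point is not a whole number of days after light onset, so the duration of light and the hour of harvest cannot be told apart there. The study notes that pigment epithelium and vitreous may be included in the dissected tissue.

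Notch receptors are activated by Delta and Jagged ligands on neighbouring cells. Cleavage then frees the intracellular part of the receptor, which joins Rbpj in the nucleus and switches on genes of the Her, Hes and Hey families. Most of these encode repressors that hold back proneural genes, and in the fish retina the pathway is known for keeping Müller glia (MG) quiescent.

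Values are edgeR pseudocounts, which are normalised signals and not read counts. The paper gives only a minimum read number per sample, so the depth of each library is unknown and no counting interval can be given. The summed signal was almost the same in every library by construction. Changes are differences of log2(value + 1) from 0 h in a limma model with the time-point and the library set, called at a Benjamini-Hochberg adjusted p under 0.05 over 11395 genes. In whole tissue, fewer cells of a type and less RNA per cell cannot be told apart.

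Over the 8 time-points, 7 of the 27 tested members passed the test, namely hes6, notch2, hey1, her6, dll4, her12 and lfng. Of all tested genes, 32.3% passed it. Among the 7 light time-points alone the same 7 members were called, beside 26.5% of all genes. Comparisons with 0 h share its 6 libraries, so their calls are given side by side. The plot of changes against 0 h shows these calls by role.

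**Figure D1:**
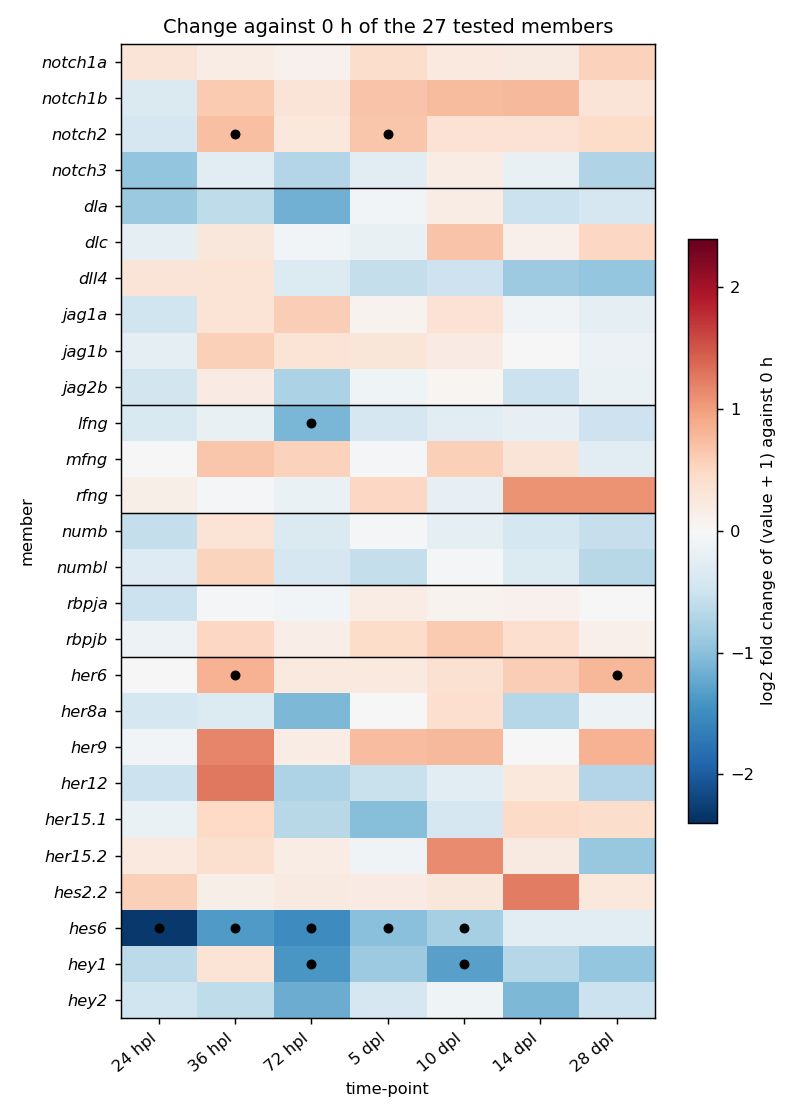
Log2 fold change of (value + 1) against 0 h for the 27 tested members (rows, grouped as receptors, ligands, Fringes, Numb proteins, Rbpj proteins and Her, Hes and Hey factors) at the 7 light time-points (columns). Black dots mark an adjusted p under 0.05, and hes6 has 5 dots in a row from 24 hpl to 10 dpl, with its lowest value of -2.32 at 24 hpl.

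At 24 hpl no member was called higher, beside 8.37% of all genes, and hes6 was the 1 member called lower, beside 7.14%. At 36 hpl notch2 and her6 were higher, 2 members beside 9.66% of genes, and hes6 was lower, beside 3.8%. At 72 hpl no member was called higher, beside 9.2%, and 3 were lower, hes6, hey1 and lfng, beside 5.7%. At 5 dpl notch2 was higher, beside 6.49%, and hes6 lower, beside 2.09%. At 10 dpl none was called higher, beside 6.41%, and hes6 and hey1 were lower, beside 1.51%. At 14 dpl no member was called in either direction in limma, beside 5.59% of genes higher and 2.31% lower, while 4 of the 27 had an unadjusted p under 0.05, beside 21.1% of all genes. By that unadjusted measure, in either direction, 3 members differed at 24 hpl, beside 27.3% of all genes. There were 7 at 36 hpl, beside 25%, and 7 at 72 hpl, beside 27.7%. At 5 dpl there were 3, beside 19.2%, with 4 at 10 dpl, beside 19.4%, and 4 at 28 dpl, beside 23.7%. At 28 dpl her6 was higher, beside 7.74%, and no member was called lower, beside 3.26%.

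The median change of the 27 members was -0.35 at 24 hpl, beside -0.07 over all tested genes, and 0.33 at 36 hpl, beside 0.13. At 24 hpl 6 of the 27 members lay above 0, beside 45.1% of all genes, and at 36 hpl 19 did, beside 62%. At 72 hpl the members had a median of -0.17, beside 0.03 over all genes, and at 5 dpl of -0.03, beside 0.08. At 10 dpl it was 0.18, beside 0.16. The last pair of time-points gave 0.02, beside 0.04, and -0.15, beside 0.03. Scaling by median of ratios shifted the median of all genes by -0.15 at 36 hpl and at 10 dpl, and by less than 0.1 at the other time-points. The 36 hpl median of all genes was then -0.01, and those of 72 hpl and of 5, 14 and 28 dpl turned below 0 as well. It also moved the share of all calls that were higher, up from 54% to 59.8% at 24 hpl and down at the later time-points, from 71.8% to 51.2% at 36 hpl and from 61.8% to 51.4% at 72 hpl. The share went from 75.7% to 61.9% at 5 dpl, 80.9% to 61.8% for 10 dpl, 70.8% to 58.2% for 14 dpl and 70.3% to 56.6% for 28 dpl.

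Among the 4 receptors, notch2 alone was called. Its values ran from 31.1 to 52.9 at 0 h (median 46.9), from 26.2 to 46.5 at 24 hpl (median 31.6) and from 60.1 to 97.1 at 36 hpl (median 67.7). All 6 libraries of 36 hpl lay above all 6 of 0 h. It then ranged from 37.1 to 93.2 at 72 hpl (median 48.4) and from 53.1 to 89.5 at 5 dpl (median 72.5), where again no library overlapped 0 h. Later values were 46.5 to 68.1 at 10 dpl (median 57.7), 45.0 to 69.3 at 14 dpl (median 53.3) and 40.4 to 112.6 at 28 dpl (median 51.0), all overlapping 0 h. The change from 0 h was 0.72 on the log2 scale at 36 hpl, with a standard error of 0.22 and an adjusted p of 0.0179. At 5 dpl it was 0.67, with the same standard error and an adjusted p of 0.0370. With median-of-ratios scaling the notch2 changes were 0.56 and 0.57, with limma adjusted p of 0.0808 and 0.0924, past the threshold no longer. Each library set alone, with 3 libraries a time-point, gave 0.71 and 0.72 at 36 hpl and 0.77 and 0.58 at 5 dpl, none of them called. The test of notch2 over the 8 time-points gave an adjusted p of 6.16e-04.

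The other receptors were below the test. notch1b ranged from 6.78 to 36.9 at 0 h (median 15.2), 3.81 to 34.2 at 24 hpl (median 11.6) and 17.3 to 46.1 at 36 hpl (median 21.3). The groups overlapped widely. At 72 hpl it ran from 8.32 to 33.5 (median 20.9), at 5 dpl from 13.002 to 38.7 (median 25.4), at 10 dpl from 14.8 to 32.4 (median 28.0), at 14 dpl from 20.4 to 37.2 (median 26.0) and at 28 dpl from 13.3 to 28.9 (median 17.7). Its adjusted p over the 8 time-points was 0.0514, and no time-point differed from 0 h beyond the threshold. In library set 1 alone notch1b was called at 10 and 14 dpl, and in set 2 alone at neither. notch3, a receptor of mural cells in vertebrate vessels, had means of 35.0 ± 10.7 (SD, n = 6) at 0 h and 17.5 ± 5.83 at 24 hpl. Of its 6 libraries at 24 hpl, 5 were below every 0 h library, with a log2 change of -0.96 (standard error 0.38, limma adjusted p = 0.0835). The mean of notch3 was 38.5 ± 3.93 at 10 dpl. notch1a, at a mean of 11.3 ± 6.61 at 0 h and between 12.01 and 15.5 at the light time-points, had an adjusted p of 0.912 over time.

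Of the 6 tested ligands, dll4, a Delta ligand prominent in vessels, passed the test over time with an adjusted p of 0.00887. Its values spanned 29.6 to 55.3 at 0 h (median 46.3), 29.0 to 95.9 at 24 hpl (median 55.8) and 28.9 to 95.8 at 36 hpl (median 54.8). They spanned 19.0 to 40.9 at 72 hpl (median 37.8), 10.7 to 59.8 at 5 dpl (median 31.2) and 17.6 to 45.5 at 10 dpl (median 33.7). At 14 dpl they were 14.6 to 38.2 (median 21.7) and at 28 dpl 11.4 to 55.2 (median 19.2). The early groups were thus the high ones and the last 2 the low ones, with 4 of 6 libraries below every 0 h library at both 14 and 28 dpl. No single time-point passed the test against 0 h, where the largest fall was -0.92 at 28 dpl (standard error 0.35, limma adjusted p = 0.0803). In library set 1 alone the test over time had an adjusted p of 0.757 for dll4, from 3 libraries a time-point.

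With the settings given above, the remaining ligands did not pass any test. Over the 8 time-points jag1b was called in library set 1 alone, and dla in library set 2 alone. jag1b, a Jagged ligand, averaged 44.9 ± 7.99 at 0 h and 67.9 ± 15.8 at 36 hpl, where 5 of 6 libraries exceeded every 0 h library (log2 change 0.58, limma adjusted p = 0.180). jag2b averaged 74.8 ± 29.8 at 0 h and 46.9 ± 20.7 at 72 hpl (log2 change -0.76, limma adjusted p = 0.119). dla, a Delta ligand, varied widely, from 21.96 to 181.6 at 0 h alone, and part of this spread lay between the library sets. At 0 h set 1 ran from 119.7 to 181.6 and set 2 from 21.96 to 104.6. The sets also did not overlap at 24 hpl, 36 hpl and 5 dpl, and they overlapped at the other time-points. The mean of dla was 99.4 ± 58.7 at 0 h and 52.4 ± 50.4 at 72 hpl, with SDs that span both sets. With the set in the model, the log2 change was -1.15 (standard error 0.52, limma adjusted p = 0.136). dlc and jag1a were low, with means between 7.60 and 14.6 for dlc and between 4.78 and 8.82 for jag1a over the 8 time-points.

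The Fringe enzymes add sugars to Notch and alter which ligands it answers to. lfng was the only one of the 3 past the test, with an adjusted p of 0.0217 over time. Its values were 59.8 to 139.6 at 0 h (median 111.3), 49.1 to 94.6 at 24 hpl (median 86.7) and 60.7 to 125.3 at 36 hpl (median 101.0). At 72 hpl they were 17.7 to 74.6 (median 56.8), with 3 of 6 below every 0 h library and the rest within the 0 h range. Values at 5 dpl ran from 56.6 to 95.0 (median 81.9), at 10 dpl from 43.2 to 108.3 (median 95.3), at 14 dpl from 75.0 to 98.7 (median 94.3) and at 28 dpl from 48.4 to 113.4 (median 74.0). The fall of lfng at 72 hpl was -1.10 (standard error 0.26, adjusted p = 0.00165), and it was -0.39 in library set 1 alone (limma adjusted p = 0.523). mfng and rfng averaged 5.89 and 9.60 at 0 h and were not called at any time-point.

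Numb antagonises Notch, and Rbpj is the DNA-binding partner of the cleaved receptor. With the settings given above, none of numb, numbl, rbpja and rbpjb passed the test over the 8 time-points or against 0 h. rbpjb, with a mean of 97.4 ± 22.6 at 0 h, stood at 148.1 ± 16.2 at 10 dpl, where all 6 libraries were above all 0 h libraries (log2 change 0.63, limma adjusted p = 0.0803). rbpja went from 72.8 ± 19.9 to 51.2 ± 18.5 at 24 hpl (log2 change -0.52, limma adjusted p = 0.0574). numbl averaged 120.4 ± 30.8 at 0 h and 176.2 ± 52.64 at 36 hpl.

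The member with the clearest course was hes6, which encodes a Hes family protein known in mouse to antagonise Hes1 and to promote neuronal differentiation. It ranged from 58.4 to 86.9 at 0 h (median 73.6), from 4.98 to 22.9 at 24 hpl (median 15.7) and from 23.4 to 32.5 at 36 hpl (median 28.0). Every library of these light time-points lay below every 0 h library. At 72 hpl hes6 ran from 13.6 to 52.2 (median 24.3), at 5 dpl from 23.4 to 58.4 (median 37.4) and at 10 dpl from 29.1 to 46.99 (median 44.5). Again all 6 libraries were below 0 h at 72 hpl and 10 dpl, and 5 of 6 at 5 dpl. Values of 45.8 to 75.4 at 14 dpl (median 64.2) and 44.1 to 78.8 at 28 dpl (median 62.4) overlapped 0 h.

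The fall of hes6 was -2.32 on the log2 scale at 24 hpl with a standard error of 0.25 (adjusted p = 3.62e-10), -1.37 at 36 hpl (adjusted p = 4.32e-05) and -1.51 by 72 hpl (adjusted p = 8.98e-06). It was -0.999 at 5 dpl (adjusted p = 0.00428) and -0.81 at 10 dpl (adjusted p = 0.0308), and at 14 and 28 dpl it was -0.25 at both, with adjusted p of 0.603 and 0.591. Without 10 dpl replicate 2, the lowest library, the 10 dpl change was -0.73 and no longer called, at an adjusted p of 0.0793. In library set 2 alone the changes of hes6 at 72 hpl, 5 dpl and 10 dpl were -1.02, -0.82 and -0.85, none of them called (limma adjusted p = 0.0554, 0.195 and 0.181), and in set 1 alone the 10 dpl change was -0.76 (limma adjusted p = 0.0952). Over the 8 time-points the adjusted p was 2.32e-10. By the contrast chosen after the values were seen, hes6 was 2.07 higher at 28 dpl than at 24 hpl (standard error 0.25, adjusted p = 1.43e-08).

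**Figure D2:**
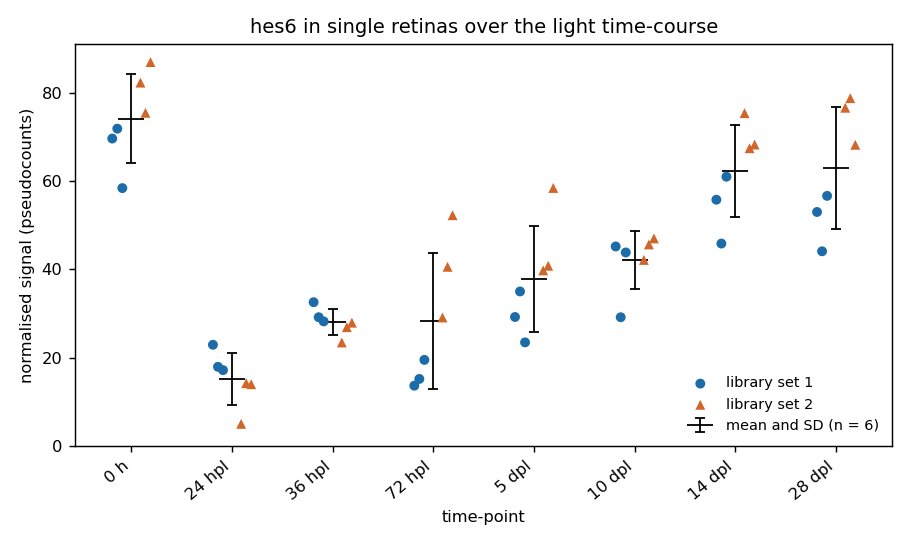
Signal of hes6 in each of the 48 libraries by time-point, with circles for library set 1, triangles for library set 2 and bars for the mean and SD of 6. All 6 libraries of 24 hpl lie between 4.98 and 22.9, below the 58.4 to 86.9 of 0 h, and the means climb from 15.2 at 24 hpl to 62.9 at 28 dpl.

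hes6 was also the 1 member with a time-course that differed between the library sets, with an adjusted p of 0.0399 for the interaction, called for 0.948% of all genes. At 72 hpl the 3 libraries of set 1 were between 13.6 and 19.5 and those of set 2 between 29.1 and 52.2, with no overlap. At 24 hpl the order was opposite, with a mean of 19.3 in set 1 and 11.04 in set 2. The change from 0 h in set 2 minus that in set 1 passed the test for hes6 at no single time-point. It was -1.16 at 24 hpl (standard error 0.39, limma adjusted p = 0.998). At 72 hpl it was 0.97, with the same standard error and an adjusted p of 0.720. The set of 2 of the 6 libraries of 0 h was taken from a suffix in their column names.

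In the zebrafish reference GRCz12tu, which is not the build of the files, hes6 overlaps itm2cb and lies beside per2, a clock gene. The strand setting of the counting is not given in the sources used here, so reads of hes6 and itm2cb cannot be told apart where they overlap. itm2cb also fell in light, but from a mean of 267.0 at 0 h to 179.1 at 24 hpl and to its lowest, 41.2, at 36 hpl (log2 change -2.68, limma adjusted p = 6.24e-15). hes6 was lowest at 24 hpl, and at 28 dpl, where hes6 overlapped its 0 h values, itm2cb was at 120.9. per2 rose from 69.4 to 775.7 at 24 hpl and was 222.8 at 28 dpl. The part of either gene in the hes6 values was not tested.

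Of the other Her and Hey factors, her6, the zebrafish counterpart of mammalian Hes1 and expressed in MG, rose at 36 hpl and at 28 dpl. Its values were 47.1 to 69.1 at 0 h (median 49.7), 34.5 to 86.5 at 24 hpl (median 56.1) and 60.5 to 143.9 at 36 hpl (median 112.9). At 36 hpl 4 of 6 libraries exceeded all of 0 h, the other 2, of set 2, falling within it. It ran from 41.4 to 98.5 at 72 hpl (median 67.5), 40.2 to 78.5 at 5 dpl (median 71.6) and 50.4 to 89.6 at 10 dpl (median 73.9). Values at 14 dpl were 61.5 to 110.2 (median 84.0) and at 28 dpl 61.2 to 123.3 (median 107.1), with 5 of 6 libraries of 28 dpl above all of 0 h. The change of her6 was 0.83 at 36 hpl, with a standard error of 0.23 and an adjusted p of 0.00994. The 28 dpl value was 0.80, with the same standard error and an adjusted p of 0.0162. With median-of-ratios scaling the 36 hpl change of her6 was 0.68, at a limma adjusted p of 0.0503. In library set 2 alone her6 changed by 0.64 at 36 hpl (limma adjusted p = 0.416) and by 0.75 at 28 dpl (limma adjusted p = 0.188).

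hey1, a Hey family repressor, was called lower at 72 hpl and 10 dpl. It ranged from 48.7 to 101.0 at 0 h (median 57.9), 27.4 to 67.2 at 24 hpl (median 44.5) and 54.4 to 115.6 at 36 hpl (median 85.7). At 72 hpl it ran from 5.84 to 81.4 (median 25.0), at 5 dpl from 20.4 to 51.0 (median 38.3) and at 10 dpl from 17.7 to 51.8 (median 22.01). The 10 dpl libraries lay below all of 0 h in 5 of 6 cases. At 14 dpl hey1 ran from 21.03 to 63.6 (median 41.8) and at 28 dpl from 12.7 to 60.5 (median 41.0). The fall was -1.39 at 72 hpl, with a standard error of 0.39 and an adjusted p of 0.00954. The 10 dpl fall was -1.31, with the same standard error and an adjusted p of 0.0237. In library set 2 alone the falls of hey1 were -1.16 and -0.93 and neither was called (limma adjusted p = 0.287 and 0.457). Over the 8 time-points hey1 passed the test in neither set 1 nor set 2 alone (limma adjusted p = 0.0806 and 0.09).

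her12, a gene of the cluster that also holds the her4 copies, was low except at 36 hpl. It ranged from 1.94 to 12.4 at 0 h (median 9.54), 1.02 to 12.5 at 24 hpl (median 5.13) and 8.84 to 33.7 at 36 hpl (median 21.2), where 5 of 6 libraries were above all of 0 h. Values were 0.227 to 12.8 at 72 hpl (median 6.22), 3.05 to 8.03 at 5 dpl (median 5.10) and 2.03 to 14.9 at 10 dpl (median 5.19). At 14 dpl they were 6.79 to 16.9 (median 8.56), and at 28 dpl they ran from a library at 0 to 8.23 (median 6.22). The test over time gave an adjusted p of 0.0203, and 36 hpl against 0 h a log2 change of 1.27 (standard error 0.51, adjusted p = 0.0979). In library sets 1 and 2 alone her12 did not pass the test over time (limma adjusted p = 0.078 and 0.454). How the counting treated reads shared by similar copies is not given, so her12 beside the her4 copies, and her15.1 beside her15.2, are uncertain. With the settings given above, the remaining tested factors, her8a, her9, her15.1, her15.2, hes2.2 and hey2, passed no test of the time-course. her15.1, her15.2 and hes2.2 averaged under 5 over the 48 libraries.

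**Figure D3:**
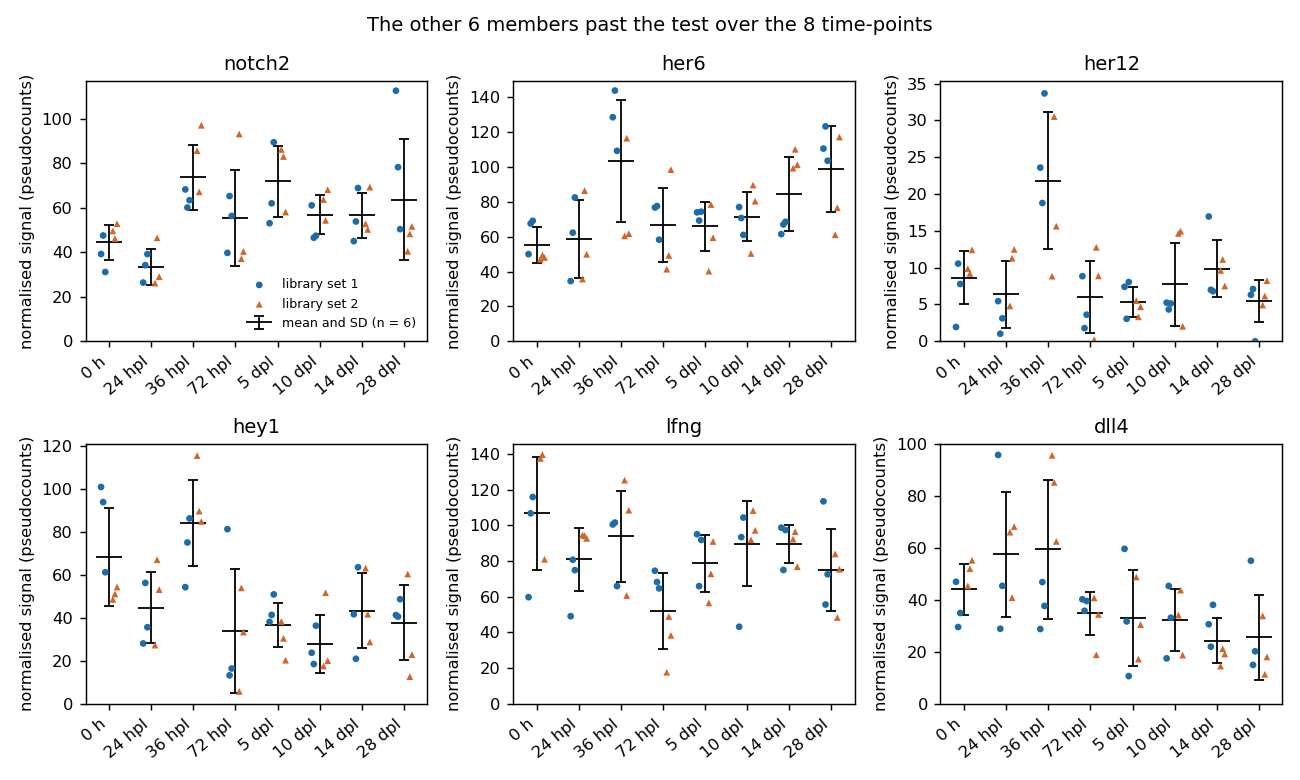
Signal of notch2, her6, her12, hey1, lfng and dll4 in each library by time-point, with circles for library set 1, triangles for set 2 and bars for the mean and SD of 6. notch2, her6, her12 and hey1 have their highest means at 36 hpl, and hey1 and lfng are low at 72 hpl.

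Because several members stood high at 36 hpl, that time-point was also set against the mean of 24 and 72 hpl, a comparison chosen after the values were seen. There 5 of the 27 members were higher, her12, hey1, notch2, her6 and numbl, beside 8.87% of all genes, and none was lower, beside 5.41%. The differences were 1.89 for her12 (standard error 0.44, limma adjusted p = 0.00155), 1.33 for hey1 (adjusted p = 0.00324), 0.90 for numbl (adjusted p = 0.0303), 0.79 for notch2 (adjusted p = 0.00156) and 0.71 for her6 (adjusted p = 0.00996). With median-of-ratios scaling, her12, hey1 and notch2 kept the call. In library set 1 alone the 5 called were her12, her6, hes6, jag1b and notch1b, and in library set 2 alone notch2 was the 1 called. Without 72 hpl replicates 1 and 2, lfng was called and numbl was not. The share of all genes called under these settings was not computed. Late was set against early light, at 28 dpl against 24 hpl, also after the values were seen. There 3 members were higher, hes6, notch2 and her6, beside 12.5% of genes. dll4 was lower (log2 difference -1.23, standard error 0.35, limma adjusted p = 0.00815), beside 8.36%. In library set 1 alone her6, hes6, notch1b, notch2, notch3 and rbpja were called, and in set 2 alone dll4, hes6 and numbl. The share of all genes called in each set alone was not computed.

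Other genes of the pathway that are no members were followed in fixed lists. Among 5 ligand ubiquitin ligases, which ready ligands for signalling, neurl1aa averaged 888.5 at 0 h and rose to 2207 at 24 hpl (log2 change 1.29, limma adjusted p = 1.55e-05), fell to 398.9 at 36 hpl (log2 change -1.16, adjusted p = 9.91e-05) and was higher again at 72 hpl and 5 dpl. mib2, which encodes a ligase of the same list, rose from 20.98 to 160.7 at 36 hpl (log2 change 2.92, adjusted p = 3.70e-06) and was also called higher at 24 and 72 hpl. neurl1b, low at a mean of 5.99 at 0 h, was called lower at 72 hpl (log2 change -1.82, adjusted p = 0.0294). Among the 4 tested genes of receptor turnover, dtx1, a deltex ligase that binds Notch, rose from a mean of 111.8 at 0 h to 1517 at 36 hpl (log2 change 3.72, adjusted p = 1.01e-13). Its 36 hpl libraries ran from 886.8 to 2334, above every library of all other time-points, and it was higher at 28 dpl too, at 276.7 (log2 change 1.31, adjusted p = 0.00184). Of the 6 tested secretase and sheddase genes, which cleave the receptor, psen2 rose at 24 and 72 hpl and adam10a fell at 28 dpl by 0.56 on the log2 scale. Of 11 feedback and nuclear partners, hdac1 fell at 24 hpl and rose at 36 hpl, ncor1 rose at both and ctbp2a fell at 72 hpl. None of the 4 tested genes of receptor glycosylation and processing was called against 0 h at any time-point. pofut1 of that list passed the test over the 8 time-points (limma adjusted p = 0.0166). It was also higher at 36 hpl than the mean of 24 and 72 hpl (log2 difference 0.71, limma adjusted p = 0.0269). The same held at 28 dpl against 24 hpl (log2 difference 0.82, limma adjusted p = 0.0204). Of the 2 tested noncanonical ligands, cntn1b fell at 24 and 72 hpl and 5 dpl, and dner was called higher at 24 hpl.

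The genes listed as proneural factors moved in both directions, and which of them Her proteins repress was not tested. neurod1 averaged 1747 at 0 h and 835.7 at 24 hpl (log2 change -1.05, limma adjusted p = 3.10e-04), was lower also at 72 hpl and 5 dpl, and was at 2005 at 36 hpl. ascl1a, a factor of MG reprogramming, was higher from 5 to 28 dpl, with a mean of 2.88 at 0 h and 24.7 at 14 dpl (log2 change 2.81, adjusted p = 6.60e-04). insm1a was higher at 14 and 28 dpl, where its means were 44.4 and 49.6 against 8.49 at 0 h. Of the 9 genes in the list, 3 were lower at 24 hpl, 2 at 72 hpl and 2 at 5 dpl, and up to 2 were higher from 5 dpl on.

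**Figure D4:**
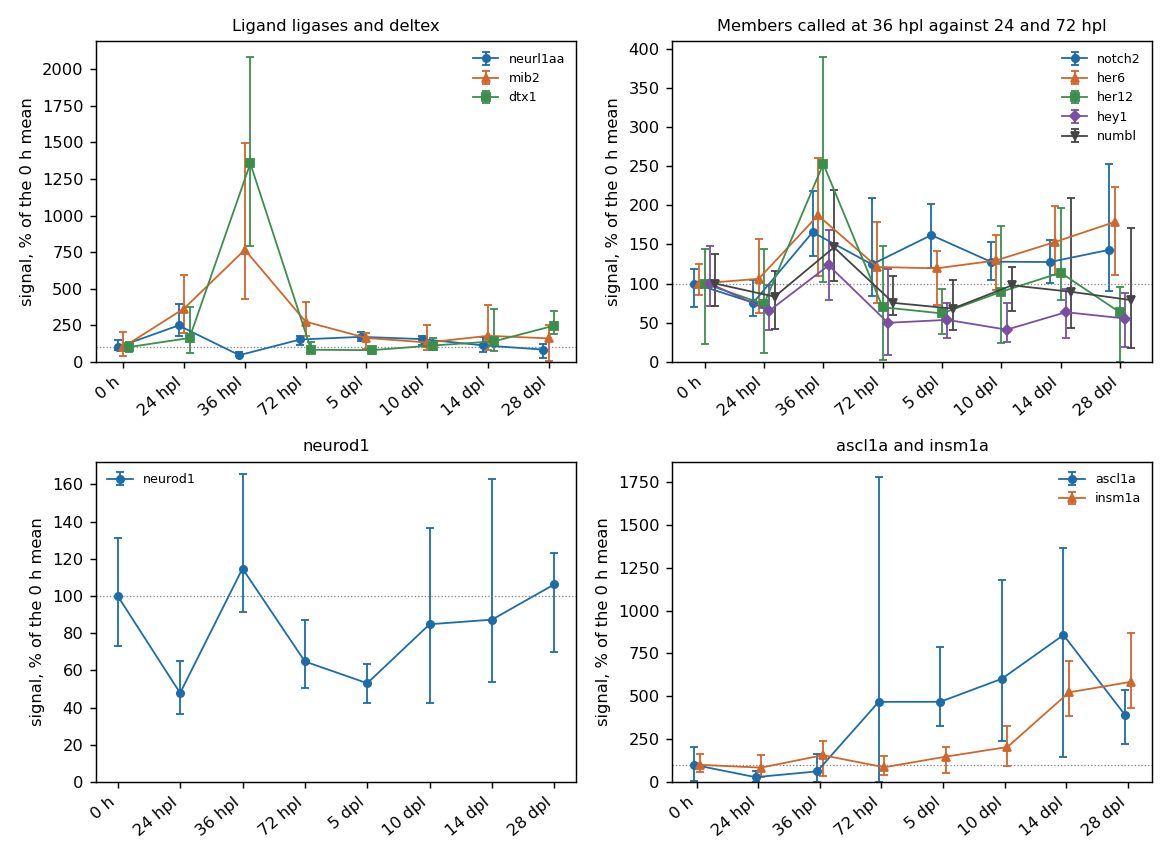
Signal as a percentage of the 0 h mean (dotted line at 100) by time-point for dtx1, mib2 and neurl1aa, for the 5 members called at 36 hpl against 24 and 72 hpl, for neurod1 and for ascl1a and insm1a. Points are means of 6 libraries and bars run from the lowest to the highest library, and dtx1 and mib2 peak at 36 hpl, where neurl1aa is lowest.

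Markers of several cell types moved with the same time-points. All 5 rod markers were tested, and their summed signal ran from 58790 to 71410 at 0 h, 32940 to 71030 at 36 hpl, 12200 to 49320 at 72 hpl and 11670 to 22030 at 28 dpl, with 1 to 4 of 5 called lower at each light time-point. sagb was called higher at 24 hpl (log2 change 0.86) and nr2e3 at 28 dpl (log2 change 1.17). Of 7 pigment epithelium markers, 3 to 5 were higher at each light time-point, with a sum of 3578 to 7352 at 0 h and 11210 to 19720 at 36 hpl, while pmelb was lower at 24 hpl (log2 change -1.52). Of 5 cone markers, gnat2 and pde6c fell at 36 hpl (log2 changes -3.24 and -3.78), and the summed signal was 37380 to 47040 at 0 h and 10730 to 27790 at 36 hpl. Cone markers called lower numbered 1 to 3 at each light time-point, and arr3a was called higher at 24 and 72 hpl and at 5, 10 and 14 dpl. Of 9 markers of inner retinal neurons, vsx1 of bipolar cells was lower at 24 hpl, higher at 36 hpl (log2 change 0.73) and lower at 72 hpl. In the same list gad1b was called higher at 24 hpl (log2 change 0.65), and cabp5b at 14 and 28 dpl (0.54 and 0.53). Called lower were isl2b at 72 hpl (log2 change -0.85) and rbpms2b at 72 hpl and 5 dpl (-0.34 and -0.35). vsx1 was 1.32 higher at 36 hpl than the mean of 24 and 72 hpl (limma adjusted p = 1.49e-09), where the 5 members were high. There gad1b of the same list was lower (log2 difference -0.38, limma adjusted p = 0.0111). The other inner retinal markers were not called in that comparison. Of the other cell types, opn1mw2 (log2 difference 4.05), opn1sw1 (1.29), pmelb (1.29), gnat1 (0.91) and rho (0.81) were called higher there. Called lower there were pde6c (log2 difference -3.35), arr3a (-1.58), gnat2 (-1.46), aqp1a.1 (-1.06) and sagb (-0.98). Markers of the same cell type thus went both ways in rods and cones. Inner retinal sums were 2924 to 3697 at 0 h and 3236 to 4034 at 36 hpl. Of the 5 tested microglial markers, mpeg1.1 was higher from 36 hpl to 10 dpl, and the sum ran from 12.01 to 28.4 at 0 h and 34.99 to 61.4 at 36 hpl. Of 8 markers of proliferating cells, 6 were higher at 28 dpl, where her6 was high, with a sum of 422.7 to 929.2 against 215.6 to 313.0 at 0 h. At 36 hpl, where her6 was also high, none was called, with a sum of 221.9 to 288.3. Between, 1 was higher at 72 hpl, 2 at 5 and at 10 dpl and 4 at 14 dpl, where her6 was not called. Of the 7 tested MG markers 0 to 2 were called lower at each time-point, and 1 was higher at 24 hpl. Their sums were 3134 to 4308 at 0 h, 2832 to 7198 at 24 hpl and 2553 to 4774 at 36 hpl. At 24 hpl glula was higher (log2 change 0.83), with gfap and vim lower (log2 changes -0.93 and -1.10). Called lower later were aqp1a.1 at 36 hpl, cx43 and rlbp1a at 72 hpl and gfap at 28 dpl (log2 change -1.03). No endothelial or mural marker of the 5 tested in each list was called against 0 h at any time-point. Endothelial sums were 134.5 to 280.8 at 0 h and 108.2 to 350.2 at 28 dpl, where dll4 was low. The endothelial pecam1 passed the test over the 8 time-points (limma adjusted p = 0.0162). It was higher at 28 dpl than at 24 hpl (log2 difference 0.94, limma adjusted p = 0.0274). The other endothelial and mural markers were called in neither. Mural sums were 311.0 to 451.6 at 0 h and 283.1 to 666.9 at 24 hpl, where notch3 was low. The part of these cell types in the members' changes was not tested.

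At 72 hpl, replicates 1 and 2 stood apart in rho, the rod opsin, at 43328 and 39251 against 10422 to 14573 in the other 4 libraries and 52016 to 64130 at 0 h. Without both, a setting chosen after this was seen, all 3 calls at 72 hpl were kept, with log2 changes of -1.17 for hes6, -1.58 for hey1 and -1.40 for lfng.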

How the data were processed

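Single retinas from 48 fish were profiled with a 3′ mRNA kit. Per the labels, the authors used STAR, HTSeq and edgeR, and they deposited pseudocounts, a normalised signal per gene. The paper names the build dR10, and versions, annotation, strand and multi-mapping settings are not given in the sources used here. Columns of fold changes, likelihood ratios, p-values and false discovery rates were the authors' own comparisons and were not used. Of the rows, 12 carried dates in place of symbols (0.128% of the signal) and were left out. Replicate numbers were matched for 46 columns, and the other 2, both of 0 h, carry none. Their library set came from the suffix that goes with the set in those 46 columns, although the labels attach that suffix to the opposite set.

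The signal was tested as log2(value + 1) for genes reaching 5 in 6 or more libraries, with limma 3.58.1 in R 4.3.3, terms for time-point and library set, and a variance trend (39 residual degrees of freedom). The script was tested on simulated data. Named are members with an adjusted p under 0.05 in any comparison with 0 h or over the 8 time-points, all tested receptors and ligands, and up to 3 genes of each other list. Members and lists were chosen with earlier results of these data known. Alternatives were another pseudocount, other filters, median-of-ratios scaling, no set term, no variance trend, each set alone, a replicate block and left-out libraries. All 40 symbols matched RefSeq (GRCz12tu), used for names and neighbours only. Replicates are single animals, and acute light and naïve libraries were not analysed here.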

Additional observations from a re-analysis of the deposited data

Results flagged for a closer look

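The tested receptors and ligands and the other called members, 15 in all, were scanned for single libraries far from the rest, and other members were not. Of 120 groups of 6 libraries 8 held one, and chance gives about 1 in 20. dla was 150.1 in 72 hpl replicate 3, against 5.42 to 53.4 in the others, and 228.3 in 5 dpl replicate 3, against 37.7 to 99.4. dll4 was 18.95 in 72 hpl replicate 5, against 34.5 to 40.9. hes6 was 29.13 in 10 dpl replicate 2, against 42.1 to 46.99. lfng was 43.2 in 10 dpl replicate 1, against 91.9 to 108.3. notch1b was 46.11 in 36 hpl replicate 5, against 17.3 to 25.4. notch3 was 29.29 in 24 hpl replicate 2, against 14.3 to 15.98, and 46.09 in 10 dpl replicate 1, against 35.4 to 38.6. The time-course of hes6 differed between the library sets by the interaction test (limma, adjusted p = 0.0399).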

How the results depend on the processing

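Each called change of a member against 0 h kept its direction under all alternatives run for it. hes6 at 24 and 36 hpl and over the 8 time-points, and notch2 over the 8 time-points, kept their calls under all 10 alternatives each. The counts below are of members called, and the share of all genes called under each alternative was not computed. With 5 added before log2, the count at 24 hpl went from 1 to 2 (hes6 and notch3). With median-of-ratios scaling, the count at 36 hpl went from 3 to 1, that at 5 dpl from 2 to 1 and that of 36 hpl against the mean of 24 and 72 hpl from 5 to 3. In library set 1 alone, with 3 libraries a time-point, 1 member was called at 5 dpl, 1 at 14 dpl (notch1b), 2 at 28 dpl and 4 among the light time-points (7 with both sets). In library set 2 alone, the count was 1 at 36 and at 72 hpl, 0 at 5 and at 10 dpl, 1 at 14 dpl (dll4) and 3 at 28 dpl (1 with both sets). It was also 1 for 36 hpl against the mean of 24 and 72 hpl. Without the filter on low values 2 members, her6 and dlb, were called at 28 dpl. With the replicate number as a block, without the 2 unnumbered 0 h libraries, the count was 1 at 5 dpl and 0 at 10 dpl (2 at each without the block). The block also left 2 of 3 called at 36 hpl (notch2 0.72, adjusted p = 0.0701) and 2 of 3 at 72 hpl (hey1 -1.34, adjusted p = 0.0512). The numbers did not pair the samples, as same-numbered libraries correlated at a median of -0.00207 over 154 pairs, from -0.211 to 0.265. The causes of these changes were not tested, and each set alone also had fewer libraries.

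The depth of each library is unknown, and the spread of low members such as her15.1 is as large as their level. The p-values rest on a spread between single fish that is pooled over the time-points for each gene, not on that of each time-point.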
